A study of Mus musculus with 2 samples.

Results

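Prostaglandins and nitric oxide are short-lived messengers that chondrocytes release during inflammation and under mechanical load. The cyclooxygenases Ptgs1 and Ptgs2 turn arachidonic acid into prostaglandin H2, which Ptges converts to prostaglandin E2 and Ptgis to prostacyclin. Prostaglandin E2 acts through the receptors EP1 to EP4, encoded by Ptger1 to Ptger4, and Hpgd, 15-hydroxyprostaglandin dehydrogenase, inactivates it. Nos2, the inducible nitric oxide synthase, makes nitric oxide from arginine. In cartilage, Ptgs2, Ptges and Nos2 are known as genes that inflammatory cytokines induce.

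The mRNA levels of these 10 genes were examined in cultured mouse chondrocytes, in an RNA sample without strain and in another 24 h after a bout of cyclic stretching. The genes were chosen by name, and each was found through the RefSeq accession of its probes, which gave 13 probes on 23 spots, among 20660 genes measured in all. The chondrocytes came from C57BL/6J mice of 6 days of age and the labels name no genetic change and no added agent. They were kept for 48 h in fibronectin-coated silicon chambers. The first RNA sample was taken before any strain, and the second 24 h after strain of 10% elongation at 0.5 Hz for 30 min. Each time point was measured on 1 one-colour array, and the number of animals behind each RNA sample is not given in the sources used here, nor is whether both came from the same pool of mice. The values therefore have no replicate check, and no test was run. Strain, the added day in culture and any difference between pools of mice cannot be told apart, since cells kept for that day without strain were not analysed here.

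An intensity is the brightness of a spot after the scanner software subtracted the background, in arbitrary units. A gene was called detected when its brightest probe was well above background on both arrays by the flag of that software, and 14231 genes were. The log2 ratio is the log2 intensity at 24 h minus that before loading, after each array was set to its 75th percentile. The error printed with a ratio combines the software's errors of both spots. It covers error within an array only, not the spread between cultures, and its median over the detected genes was 0.20. Intensities of different probes are not comparable as levels of their genes.

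As markers of the cell type, all 16 chondrocyte genes examined were detected, and their summed intensity was 1456006 before loading and 1454025 at 24 h. Col2a1, the chain of type II collagen, gave intensities of 499543 before loading and 474876 at 24 h, a log2 ratio of -0.07 that was above 0 with each of the 4 other scalings run. The brightest probes carry this sum, and 3 of the 16 genes had a ratio of more than 2 errors, 2 lower and 1 higher. Col11a1, a chain of type XI collagen, had 107657 before loading and 60799 at 24 h (-0.82), Chad, which encodes chondroadherin, had 614 and 338 (-0.86), and Matn1, which encodes matrilin-1, had 87822 and 129093 (0.56). Of 12 macrophage and neutrophil markers with a probe, 10 were detected, with a sum of 30379 before loading and 29489 at 24 h. Most of that sum came from 1 probe of Itgam (25496 and 24759), whose other probes lay between 44.2 and 70.4. Ptprc, the pan-leukocyte marker CD45, was the only one past 2-fold, with 20.9 before loading and 46.1 at 24 h (log2 ratio 1.14). It came inside 2-fold with normexp correction (0.40). Ptprc and Lyz2 (367 before loading and 506 at 24 h, 0.46) were higher by more than 2 errors, and no gene of the list was lower by that much. With normexp correction neither of them passed 2 errors. Of 9 endothelial markers, 4 were detected (sums of 14611 and 13966), while the probes of Cdh5, Tek, Tie1, Emcn and Cldn5 were not well above background at either time. Kdr had the brightest of the endothelial probes (12774 and 12375, a log2 ratio of -0.05 that was above 0 with 3 of the 4 other scalings), and its other probe was not well above background. Of 11 smooth muscle and fibroblast markers, 9 were detected, with sums of 29193 and 22056, and the dermatopontin gene Dpt was the only one past 2-fold (59.2 before loading and 253 at 24 h). The list had 6 of its 9 detected genes below 0, against 52.4% of all detected genes. With spike-in scaling it had 4, against 34.1%. Past 2 errors were 4 lower genes, Tagln (-0.57), Acta2 (-0.51), Prg4 (-0.47) and Pi16 (-0.44), and 1 higher, Dpt. The count of lower ones was 2 with median and 1 with spike-in scaling. Of all 14231 detected genes, 16.4% were past 2 errors in either direction, 1298 lower and 1030 higher. The lower ones among them were 911 with median and 850 with spike-in scaling. The part of these cells in the values below was not tested.

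Of the 10 genes, 7 were detected, and Ptger2, Ptger3 and Ptger4 were not. Ptgs2 had the lowest log2 ratio of the 7, with an intensity that was 1.82-fold lower at 24 h. Hpgd and Nos2 followed, in an order that turned when Hpgd was taken as the mean over its probes. Ptgis was the 1 gene of the 7 with a higher intensity at 24 h. None of the 7 passed 2-fold in either direction, against 2.49% of all detected genes (0.668% higher and 1.83% lower). The share of higher ones among all genes past 2-fold was 26.8%, and it was 38.8% with median scaling and 43.1% with scaling to the spike-in controls. A log2 ratio below 0 was found for 6 of the 7 genes and for 52.4% of all detected genes (36.9% when scaled to the median and 34.1% when scaled to the spike-in controls, where the count of the 7 was also 6). The median log2 ratio of the 7 was -0.18, and that of all detected genes -0.01. In bulk RNA, fewer cells that express a gene and less of its RNA per cell cannot be told apart.

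**Figure D1:**
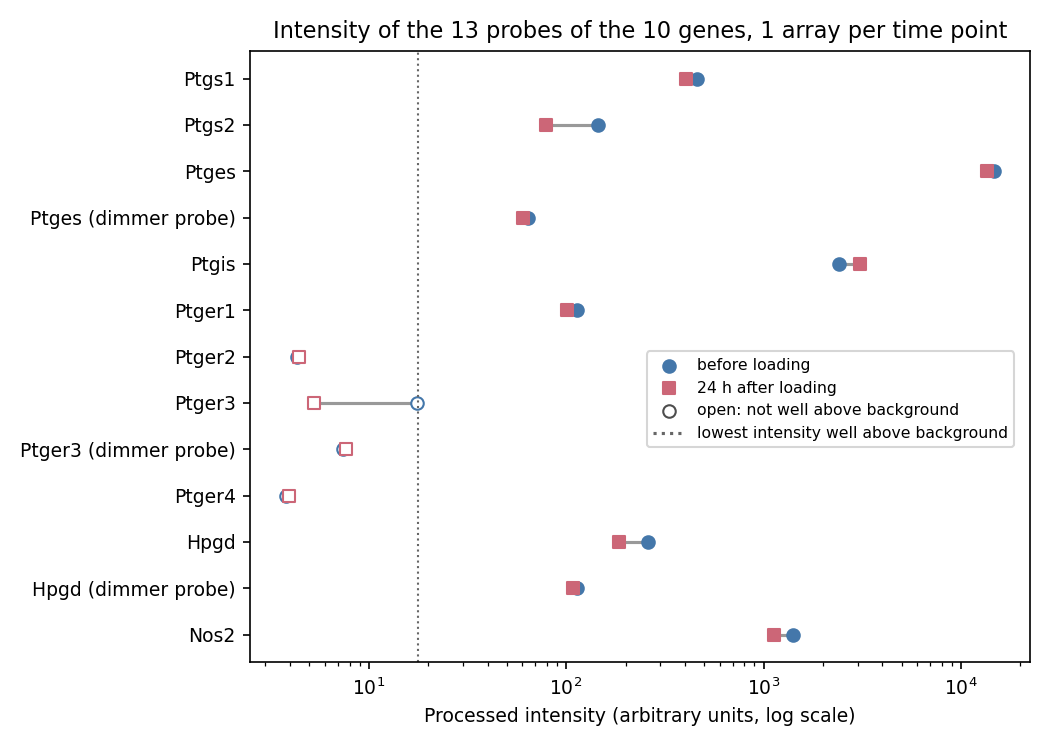
Processed intensity (arbitrary units, log scale) of each of the 13 probes before loading (circles) and 24 h after loading (squares), with open symbols where a probe was not well above background. The pair of symbols lies farthest apart for Ptgs2 among the detected probes, at 145 before loading and 79.5 at 24 h, while the probes of Ptger2, Ptger3 and Ptger4 lie at or below the dotted line at 17.8, the lowest intensity well above background at 24 h.

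The start regions of 7 of the 10 genes were found in the RefSeq table of assembly GRCm38.p6, each 300 bases long, from 250 bases before the annotated start to 50 after it. Those of both cyclooxygenases and of Ptges are shown. They were chosen because Ptgs2 differed most between the arrays among the detected genes of the 10. Ptgs1 makes the same product, and Ptges uses it. Ptgs1 lies at chr2:36230176-36230475 on the plus strand, Ptgs2 at chr1:150099781-150100080 on the plus strand and Ptges at chr2:30903248-30903547 on the minus strand. Capitals mark the letters of the motifs searched on both strands.
Ptgs1: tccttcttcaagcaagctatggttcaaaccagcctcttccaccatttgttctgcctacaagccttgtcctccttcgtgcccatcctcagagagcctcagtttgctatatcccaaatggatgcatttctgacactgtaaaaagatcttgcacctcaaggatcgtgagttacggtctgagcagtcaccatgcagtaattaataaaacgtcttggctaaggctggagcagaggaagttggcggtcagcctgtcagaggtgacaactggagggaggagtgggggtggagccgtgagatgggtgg
Ptgs2: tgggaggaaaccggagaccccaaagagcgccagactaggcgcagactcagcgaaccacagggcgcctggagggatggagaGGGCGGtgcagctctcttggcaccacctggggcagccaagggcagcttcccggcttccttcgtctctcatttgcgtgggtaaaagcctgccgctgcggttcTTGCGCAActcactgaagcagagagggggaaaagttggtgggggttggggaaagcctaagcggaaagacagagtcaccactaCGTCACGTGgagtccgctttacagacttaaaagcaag
Ptges: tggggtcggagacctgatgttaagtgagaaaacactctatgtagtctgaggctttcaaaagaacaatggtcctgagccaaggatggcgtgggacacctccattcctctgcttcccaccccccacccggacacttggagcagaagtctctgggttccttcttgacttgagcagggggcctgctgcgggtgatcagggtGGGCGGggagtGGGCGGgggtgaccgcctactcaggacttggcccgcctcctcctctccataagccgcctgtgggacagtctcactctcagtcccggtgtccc

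The motifs searched were TATAAA (found in 13.6% of all 32851 start regions of the table), its variant TTTAAA (13.2%), the E-box CACGTG (7.15%), the half-site TGACG (20.8%) and the full site TGACGTCA (1.79%) of the cyclic AMP response element, which contains the half-site, the C/EBP core TTGCGCAA (0.183%), the GC box GGGCGG (35.7%) and the NF-κB motif (8.46%). Ptgs2 held the C/EBP core from base -69 to -62 relative to the annotated start. It also held the E-box from 17 to 22, which overlaps with a half-site from 14 to 18 on the other strand, and a GC box from -170 to -165. Ptges held the GC box at 2 places, from -53 to -48 and from -42 to -37. None of the motifs was found in the window of Ptgs1. A match is a run of letters and not a site that was tested.

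Among those of the 10 genes that make prostaglandins, the level of Ptgs2 differed most between the arrays and those of Ptgs1 and Ptges differed little. The probe of Ptgs2 is printed on 10 spots of each array. Before loading the lowest of its 10 spots had an intensity of 118, the median was 144 and the highest 170.0. At 24 h the lowest had 67.8, the median was 78.9 and the highest 95.5. Every spot was thus lower at 24 h, and the spots of the 2 arrays did not overlap. Of 259 probes with at least 8 spots, all well above background, 17.0% were lower at 24 h without overlap. The 10 spots gave a log2 ratio of -0.87 with an SD of 0.13 between spots, and single spots lay between -1.05 and -0.60. These spots measure the same 2 RNA samples, so that the SD is one of the array and not of the cells. The software's error of the ratio was 0.22. A total of 2.46% of the detected genes had a lower log2 ratio than Ptgs2. With normexp background correction, which adds a fixed offset to every intensity, the ratio of Ptgs2 was -0.51.

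**Figure D2:**
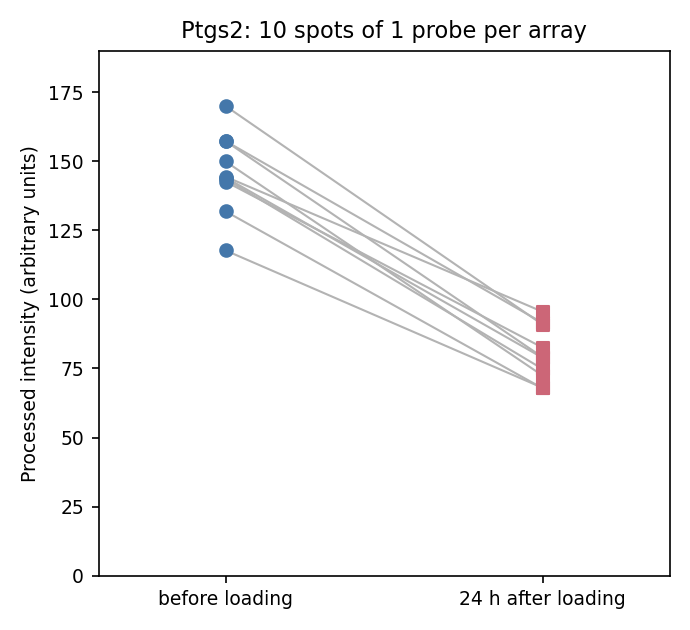
Processed intensity (arbitrary units) of the 10 spots of the Ptgs2 probe on the array before loading (circles) and on that at 24 h (squares), with lines joining the spots at the same place of the array. The spots lie between 118 and 170.0 before loading and between 67.8 and 95.5 at 24 h, and all lines run downwards.

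Ptgs1, the cyclooxygenase that many tissues express without a stimulus, gave 461 before loading and 406 at 24 h on its only probe. Its log2 ratio of -0.18 was smaller than its error of 0.20. Ptges, the inducible prostaglandin E synthase of the membrane, gave intensities of 14755 before loading and 13575 at 24 h on its brighter probe. The log2 ratio was -0.12 (error 0.20), and the dimmer probe, with 64.0 and 60.7, gave -0.07 (error 0.26). Neither gene differed between the arrays by more than this error.

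Ptgis, prostacyclin synthase, gave intensities of 2422 before loading and 3092 at 24 h. The log2 ratio of 0.35 was above its error of 0.20, and 10.3% of the detected genes had a higher one. It lay between 0.34 and 0.47 under the other settings run for it. In the RefSeq table the interval of Ptges overlaps Gm52550 and Gm13400, and that of Ptgis overlaps Gm52569. The places of the probes within these intervals are not known here.

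Of the 4 receptors of prostaglandin E2, only Ptger1, which encodes the calcium-coupled EP1, was detected. Its probe gave 113 before loading and 101 at 24 h, a log2 ratio of -0.16 with an error of 0.22. Ptger2 and Ptger4, whose receptors EP2 and EP4 raise cyclic AMP, had intensities of 4.35 and 3.80 before loading and 4.43 and 3.94 at 24 h. Ptger3, whose receptor EP3 mostly lowers cyclic AMP, had 17.6 before loading and 5.28 at 24 h on its brighter probe and 7.45 and 7.65 on the other. None of these 4 probes had the flag of a signal well above background, and the lowest intensities that had it were 17.3 before loading and 17.8 at 24 h. No fold is therefore given for the 3 genes.

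Hpgd, the enzyme that starts the breakdown of prostaglandin E2, gave intensities of 261 before loading and 186 at 24 h on its brighter probe, a log2 ratio of -0.49 with an error of 0.21. The dimmer probe had 114 and 108, a log2 ratio of -0.07 with an error of 0.22. The mean over both probes was -0.28. Only the brighter probe was thus lower by more than its error. Whether the probes read different transcripts of Hpgd was not tested.

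Nos2 had intensities of 1371 and 1437 on its 2 spots before loading and of 1125 and 1133 at 24 h. Both spots were lower at 24 h. The log2 ratio was -0.31 with an error of 0.20 and an SD of 0.04 between spots, and 15.1% of the detected genes had a lower one. With spike-in scaling the ratio of Nos2 was -0.19, inside its error. Nos1 and Nos3, the neuronal and endothelial synthases, were detected at low intensity. Nos1 had 62.9 before loading and 50.7 at 24 h (log2 ratio -0.31, error 0.26). The brighter probe of Nos3 had 274 and 265 (-0.05, error 0.21), and its dimmer probe had 50.2 and 40.8 (-0.30, error 0.28).

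**Figure D3:**
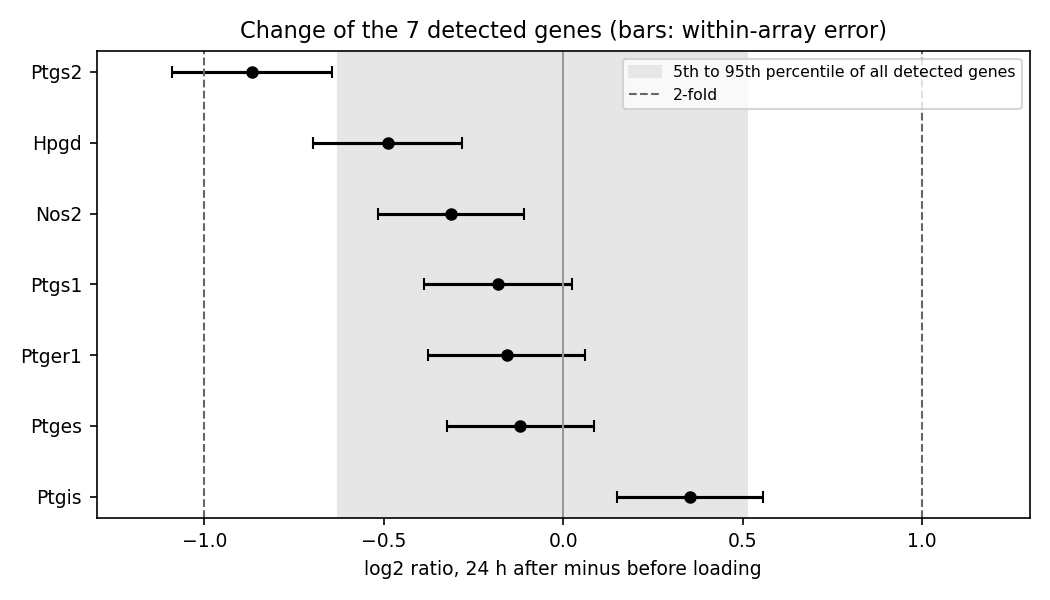
Log2 ratio of the 7 detected genes, 24 h after minus before loading, with bars for the within-array error, dashed lines at 2-fold and a grey band from the 5th to the 95th percentile of all detected genes (-0.63 to 0.51). Ptgs2 at -0.87 lies outside the band, and the other 6 genes lie inside it between -0.49 and 0.35.

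A total of 2 of the 7 genes, Ptgs2 and Hpgd, had a log2 ratio of more than 2 errors, against 16.4% of all detected genes. That of Hpgd came inside 2 errors in 4 of 7 alternatives, with median scaling (-0.39), spike-in scaling (-0.37), normexp correction (-0.35) and as the mean over its probes (-0.28), while that of Ptgis passed 2 errors with median scaling (0.45) and spike-in scaling (0.47). Ptgs2, Hpgd, Nos2 and Ptgis passed 1 error, against 42.8%. Scaling to the spike-in controls raised the median ratio of all detected genes by 0.12, and the ratios of Ptges, Ptger1, Ptgs1 and Nos2 were then -0.00075, -0.04, -0.06 and -0.19. No gene of the 7 changed its sign under the settings run for it. None of the 23 spots had 3 or more spots within 100 µm that changed past 2-fold in its own direction.

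The other genes of both pathways were taken from 11 lists ordered by role, with 134 genes, of which 133 had a probe and 105 were detected. Past 2-fold were 2 that were higher and 1 that was lower, 2.86% of the 105 against 2.49% of all detected genes. The median log2 ratio was -0.05, against -0.01 for all detected genes, and 61.0% of the 105 genes had a ratio below 0, against 52.4%. With spike-in scaling these shares were 40.0% and 34.1%, and the median of the 105 was 0.07. No gene of the lists passed 2-fold by more than 2 errors.

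Upstream of the cyclooxygenases, Pla2g4a, the cytosolic phospholipase A2 that releases arachidonic acid, gave intensities of 946 before loading and 833 at 24 h, a log2 ratio of -0.18 with an error of 0.20. Of the 9 detected genes of this supply list, Pla2g2e, a secreted phospholipase A2, was the only one past 2-fold. Its probe gave 324 before loading and 155 at 24 h, a log2 ratio of -1.07 (error 0.21), which came inside 2-fold with median scaling (-0.97), spike-in scaling (-0.95), normexp correction (-0.86) and as the mean over its probes (-0.85). Anxa1, which encodes annexin A1 and has the brightest probe of the list, had a ratio of -0.11, and 0.01 with spike-in scaling. Higher by more than 2 errors were 2 genes, Pla2g5 (0.73, error 0.20) and Mgll (0.59, error 0.20), against 1 lower, Pla2g2e. Of all 14231 detected genes, 1030 were higher and 1298 lower by this limit. The higher genes of the list were 4 with median scaling (1639 of all detected genes) and 4 with spike-in scaling (1821). As the mean over probes 1 was higher (980 of all detected genes). Pla2g5 had 0.04 on its dimmer probe, and Mgll had 0.27 and 0.47 on its other detected probes.

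Among 7 other prostanoid synthases detected, Ptgds, prostaglandin D synthase, was higher past 2-fold, with 115 before loading and 232 at 24 h (log2 ratio 1.02, error 0.21). With normexp correction its ratio was 0.80. Ptges3, the cytosolic prostaglandin E synthase also known as p23, had -0.12 on its brightest probe (0.0026 with spike-in scaling) and between -0.16 and 0.01 on its 3 other probes.

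Of the 6 other genes listed as prostanoid receptors, 4 were detected and none passed 2-fold. Ptgfr, the receptor of prostaglandin F2 alpha, gave intensities of 109 before loading and 63.4 at 24 h, a log2 ratio of -0.78 with an error of 0.23. Ptgfrn, which encodes a protein that binds this receptor, had 0.03. Ptgir, the receptor of the prostacyclin that Ptgis makes, was dim, with 21.5 before loading and 34.5 at 24 h (0.68, error 0.35).

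Transport and breakdown of prostaglandins were covered by 7 detected genes, none past 2-fold. Ptgr1, a reductase that acts after Hpgd in the breakdown, had 624 before loading and 383 at 24 h, a log2 ratio of -0.70 with an error of 0.20. The exporter Abcc4 had 0.11, and Slco2a1, which takes prostaglandins up, had -0.03. In the leukotriene branch, 8 of 9 detected genes had a ratio below 0, against 52.4% of all detected genes. On the brightest probes none was past 2-fold or 2 errors. Mgst3 had -0.14 on its brightest probe and -0.74 (error 0.21) on its other. With the mean over probes 1 gene of this list was lower by more than 2 errors, as were 1247 of all 14231 detected genes. With median and with spike-in scaling 6 of the 9 were below 0, against 36.9% and 34.1% of all detected genes. Mgst2 had -0.34, and Lta4h, leukotriene A4 hydrolase, had -0.07 (0.03 with median and 0.05 with spike-in scaling).

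Around nitric oxide, Nostrin, which encodes a trafficking partner of Nos3, was higher past 2-fold at a dim probe, with 21.3 before loading and 45.4 at 24 h (2.14-fold, error 0.37 on the log2 scale). With normexp correction its log2 ratio was 0.34. It was the only one of 9 detected synthases and partners past 2-fold.

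For the supply of arginine and of the cofactor tetrahydrobiopterin, 12 of 14 genes were detected, with a median log2 ratio of -0.19. Gch1, the rate-limiting enzyme of tetrahydrobiopterin synthesis, gave intensities of 874 before loading and 458 at 24 h, a ratio of -0.93 with an error of 0.20. Ass1, which takes part in remaking arginine from citrulline, had -0.68 and -0.86 on its 2 probes. The arginine importer Slc7a1 had -0.21. Arg1 and Arg2, the arginases that compete for the same substrate, were not well above background at either time. Ddah2, listed as an enzyme that degrades the methylarginine inhibitors of nitric oxide synthases, had 786 before loading and 1497 at 24 h (0.93, error 0.20). It passed 2-fold with median scaling (1.03) and spike-in scaling (1.05). Ddah1 had -0.39 and -0.28 on its 2 probes, and Prmt1, an arginine methyltransferase, had -0.09 (0.01 with median and 0.03 with spike-in scaling).

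Downstream of nitric oxide, Gucy1a1, Gucy1a2 and Gucy1b1, subunits of soluble guanylate cyclase, were not well above background at either time. Gucy1b2, the other subunit listed, was detected, with 65.7 before loading and 58.3 at 24 h (-0.17, error 0.25). The cyclic GMP kinases Prkg1 and Prkg2 were detected with ratios of 0.02 and -0.05 (0.05 for Prkg2 with median and 0.07 with spike-in scaling), and Pde2a, a phosphodiesterase, had -0.66 (285 before loading and 181 at 24 h, error 0.21).

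Downstream of the receptors of prostaglandin E2, 24 genes of cyclic AMP signalling were detected with a median ratio of 0.04. Rgs2, a regulator of G protein signalling that cyclic AMP induces, had 4466 before loading and 2385 at 24 h, a log2 ratio of -0.90 with an error of 0.20. Its dimmer probe had 71.3 and 33.0, a ratio of -1.11, and the mean over both probes was past 2-fold at -1.01. Adcy4, an adenylate cyclase, had 73.4 and 132, a ratio of 0.85 with an error of 0.22. Gnas, the stimulatory G protein, had 0.003 on its brightest probe and -0.44 and -0.25 on the others.

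Of 17 cytokines, cytokine receptors and transcription factors listed as inducers of Ptgs2, Ptges and Nos2, 11 were detected. The cytokines Il1a, Il1b, Tnf, Ifng, Il17a and Il6 were not well above background at either time, with intensities between 3.54 and 7.13. Tnfrsf1a, a receptor of TNF, had a log2 ratio of 0.12 over 10 spots. Cebpd, a transcription factor of the C/EBP family, had 7799 before loading and 5929 at 24 h (-0.39, error 0.20), and its relative Cebpb had 10039 and 7954 (-0.34, error 0.20).

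**Figure D4:**
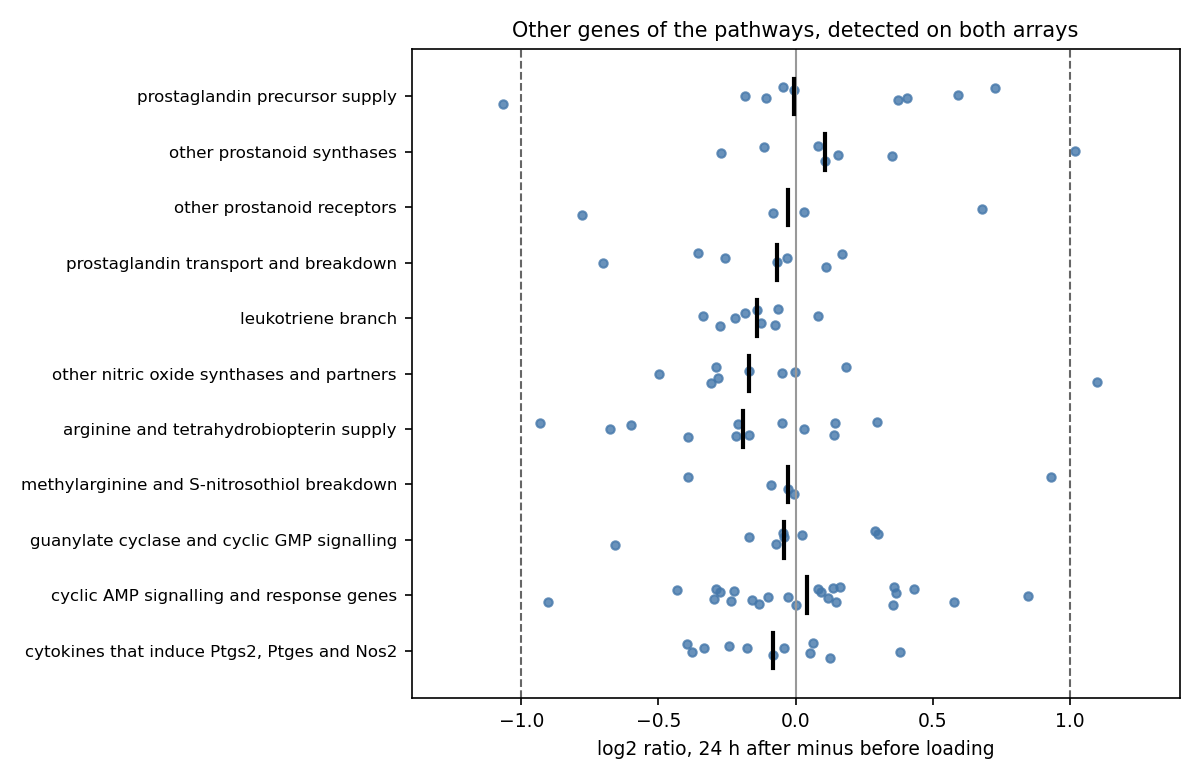
Log2 ratio, 24 h after minus before loading, of the 105 other pathway genes detected on both arrays, 1 point per gene and 1 row per list, with black bars at the list medians and dashed lines at 2-fold. The medians lie between -0.19 and 0.11, and 3 genes (Pla2g2e, Ptgds and Nostrin) lie outside 2-fold.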

How the data were processed

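Total RNA of primary chondrocytes before and 24 h after loading was hybridised to SurePrint G3 Mouse arrays, 1 per time point, which lay on the same slide and were scanned together. The authors deposited intensity values made by Agilent Feature Extraction 10.10.1.1, subtracted for background and not normalized between arrays, with flags. The deposited value table holds the same intensity of each spot, within 0.497%. Files name probes by accession, and array design is on mm9.

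Spots flagged as outliers on either array (141 before loading and 138 at 24 h) were left out of both, log2 intensities of spots of a probe averaged, and the 75th percentile of 55678 probes subtracted. It lay at 466 on both arrays. Of the 59305 spots other than controls, 59.1% and 57.7% were well above background, and 0 were saturated. The number of arrays limits the precision. Accessions without version were matched to a RefSeq table of GRCm38.p6, used for names and start regions (27235 probes matched). The brightest probe represents a gene.

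Members and lists were chosen with earlier results of these data known. The text names all 10 members and, of each list, genes past 2-fold, the brightest gene and that with the largest change. Some results that this rule would name are not reported here. Further list and marker genes were named for their role or ratio after values were seen. Simulated data were used to check the calls. Normexp (offset 50, on median intensities, as no mean is in the files used) and loess used limma 3.58.1 (R 4.3.3), and numpy 2.4.6 and pandas 2.3.3 under Python 3.11.15 served for all other steps. A total of 11 alternatives were run.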

Additional observations from a re-analysis of the deposited data

How the results depend on the processing

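No paired analysis was possible because single arrays, and not numbered pairs, were compared. No replicate could be left out. Of 49 values of the 7 detected genes under other settings, 47 differed from the reported one by less than the within-array error, and 0 changed sign. The exceptions were Ptgs2 with normexp correction (-0.51), which adds an offset of 50 to every intensity, and Hpgd as the mean over its probes (-0.28). The count of 47 is no measure of robustness, since many of the values could not differ by that error. The deposited values are nearly the same intensities, and a gene with 1 probe keeps its ratio as the mean over probes. Median and spike-in scaling shift every ratio by 0.10 and 0.12, less than the error of each of the 7 genes. With no filter on dim probes 1 of the 10 genes, Ptger3, passed 2-fold, with neither intensity well above background. The 3 list genes past 2-fold became 7 with no filter, 6 with detection on at least 1 array, 0 with normexp correction and 0 when 2-fold had to be passed by more than 2 errors. With median and with spike-in scaling the count stayed at 3, all higher. Median scaling raised the median ratio of all detected genes by 0.10. Signals near background limit the dim probes (Ptger2 to Ptger4, Ptgir, Nostrin).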
